A study of Mus musculus with 32 samples.

Results

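The step from day 2 to day 4 in mouse cultures labelled Mettl3 KO was measured by messenger RNA sequencing in 4 libraries, 2 from each day, of 32 libraries in the series. Members were assigned by label: all genes were compared between the KO libraries of day 4 and those of day 2, and no measured value decided which libraries belong. The comparison was proposed with earlier results of these data known. Of 55492 rows in the expression table, 16276 genes had enough signal to be tested and 27474 were listed at 0 in all 4 libraries. The study followed retinal organoids, aggregates that embryonic stem cells form on the way to eye tissue, at days 0, 2, 4 and 6, with stem cells at day 0. Mettl3 encodes the methyltransferase at the core of the complex that places N6-methyladenosine (m6A) in RNA. The KO cultures were given no Dex, and at both days their medium, a GMEM mix, held an agent named only as AGN at 0.1 µM. The comparison groups at the same days were WT, the Rx:GFP line, and the KO line overexpressing METTL3 fused to GRBD, grown with Dex at 10 µM, which moves the fusion to the nucleus, or without Dex, where it is cytosolic. All of these groups shared the medium and AGN. The labels state neither how many clones the KO line represents nor how the gene was disrupted, and they call the tissue retinal organoids at both days. Per the labels' protocols the 2 libraries of a group came from separate rounds of preparation and sequencing, although all 32 carry 1 batch date, and nothing says they were separate cultures, so the p-values measure the spread between these libraries, which may be technical.

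In mouse development the naive epiblast first passes through a formative state, marked by Fgf5, Otx2 and Pou3f1, and then gives rise to the neural plate. The plate is divided along its axis: an anterior part forms forebrain and the eye field, which expresses Rax, Six3 and Lhx2, and a more posterior part forms diencephalon and midbrain, where Irx genes, Dmbx1, Wnt1 and En1 are expressed. Low Wnt and low retinoic acid signalling are known to favour the anterior fates. m6A marks many transcripts for decay, among them transcripts of pluripotency genes.

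The promoters of a pair of genes are shown because they lie upstream of members that rose strongly in the step and carry letters of a pathway element. Each run holds the 250 bases before the transcription start, 5′ to 3′ on the gene's plus strand, from RefSeq on GRCm38.p6, at chr19:37697558-37697807 for Cyp26a1 and chr2:70474673-70474922 for Sp5. Capitals mark the match to the element searched: in Cyp26a1 the retinoic acid response element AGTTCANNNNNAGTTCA, present as its reverse complement, and in Sp5 the TCF/LEF element CTTTGAT as written.
Cyp26a1: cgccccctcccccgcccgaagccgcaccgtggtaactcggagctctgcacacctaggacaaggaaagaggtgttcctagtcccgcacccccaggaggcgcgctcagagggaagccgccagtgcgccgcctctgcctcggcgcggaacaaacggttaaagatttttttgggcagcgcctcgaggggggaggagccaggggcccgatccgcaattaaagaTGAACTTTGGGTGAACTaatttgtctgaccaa
Sp5: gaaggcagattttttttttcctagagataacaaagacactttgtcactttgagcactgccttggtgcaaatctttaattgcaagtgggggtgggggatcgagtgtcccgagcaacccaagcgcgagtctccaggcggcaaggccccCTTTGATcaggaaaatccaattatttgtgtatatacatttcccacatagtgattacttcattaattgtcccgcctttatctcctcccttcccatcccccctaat
The Cyp26a1 match began 32 bases before the start, and the Sp5 match 104 bases before it. In windows of 300 bases (250 before to 50 after the start, both strands), the first run of letters was found in 8 of 32851 promoters (0.024%) and the second in 1225 (3.73%). Only these exact letters were searched. A variant spelling of either element would not be counted, so these shares do not give how common the elements are. Among genes of the lists used below, the first was in 1 of 11 matched retinoic acid genes, Cyp26a1, and the second in 1 of 14 matched Wnt genes, Sp5. Whether a factor binds at these letters was not measured.

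Expression was given as FPKM, mapped fragments scaled by transcript length and library depth, and each pair of values below is the 2 libraries of a group. Depth, recovered from the steps between low values, was 33.1 M to 53 M fragments (M, mega) in the 4 KO libraries and 28.6 M to 53 M over all 32. At that depth 3 fragments on a transcript of 2 kb correspond to 0.028 to 0.045 FPKM, and this limit covers counting error only. Mettl3 (ENSMUSG00000022160, chromosome 14, 52294841 to 52305128, minus strand; GRCm38) stood at 38.9 and 40.8 FPKM in the KO libraries of day 2 and 34.9 and 38.4 FPKM at day 4, against 40.2 and 41.2 FPKM and 32.5 and 34.5 FPKM in WT. The change of -0.12 ± 0.06 on the log2 scale (SE) in KO was not called (limma adjusted p = 0.0962), and after median-of-ratios rescaling it was -0.18 (adjusted p = 0.0182). The KO and WT values of Mettl3 lay close together at both days, and no marked loss was seen under the KO label. Since one FPKM value for a whole gene cannot reveal a short deletion, KO here means the libraries that carry the label. Changes are differences of log2(FPKM + 1) with their SE, and calls required an adjusted p under 0.05 in limma, by the Benjamini-Hochberg method. "Rose" and "fell" are used only of called genes.

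Between day 2 and day 4 the KO cultures lost transcripts of the pluripotent and formative epiblast and gained transcripts of the neural plate and of its diencephalic and midbrain part. Tcf15, Dppa5a and Utf1 fell by 10-fold or more, while Irx5, Irx3 and Irx1 rose by 20-fold or more. Rax, the defining gene of the eye field, rose but stayed low. It reached 1.20 and 1.21 FPKM at day 4, against 30.7 and 31.5 FPKM in WT. Of 12 eye field genes, Rax included, 7 rose and 1 fell, and of 10 tested anterior forebrain genes 8 rose and 0 fell. Over all tested genes 35.5% rose and 28.7% fell. Cyp26a1, which encodes the enzyme that degrades retinoic acid, showed the largest rise among the genes that could be named.

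In numbers, 10455 of the 16276 tested genes were called (64.2%), 5780 higher at day 4 (35.5%) and 4675 lower (28.7%). The shares higher and lower are the background for every count below. Of the calls, 5998 were changes under 0.5 on the log2 scale. At least 1 on that scale, a doubling for genes well above 1 FPKM, was reached by 651 genes that rose (4.0%) and 726 that fell (4.46%). In 10440 of the called genes (99.9%) the day 2 and day 4 libraries did not overlap, as in 13153 of all 16276 tested genes (80.8%). The median change of all tested genes was 0.03 in KO and 0.04 in WT. After rescaling, 50.3% of calls were higher in place of 55.3%. For the same genes 9750 changes were called in WT (59.9%). The difference between the KO and the WT change, tested in the same limma fit, was called for 6893 genes (42.4%), higher in KO for 3313 (20.4%) and lower for 3580 (22.0%).

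The 651 genes that rose by at least 1 had a median level of 2.54 FPKM at day 2 and 9.20 FPKM at day 4. The 726 that fell had medians of 7.14 and 1.58 FPKM. Protein-coding genes made up 95.4% of the first group, 84.4% of the second and 83.7% of all tested genes. The median longest annotated transcript was 3838 bases for those that rose, 2043 bases for those that fell and 2916 bases for all tested genes.

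**Figure D1:**
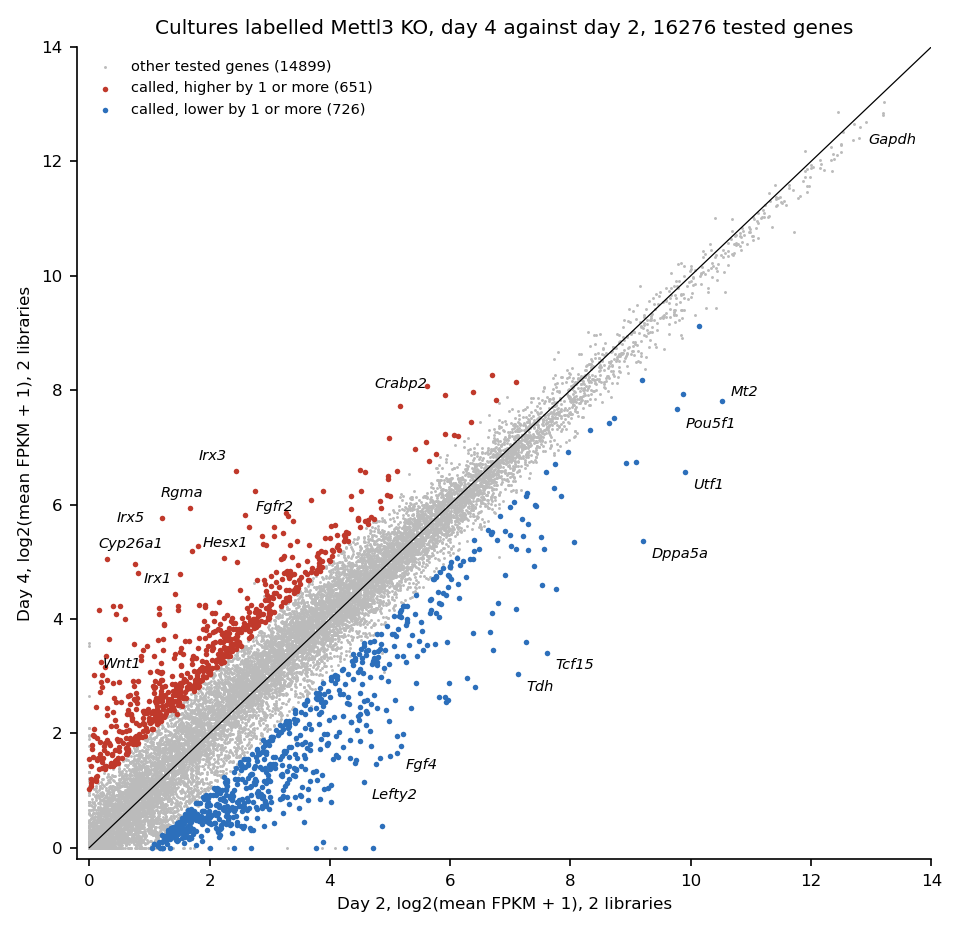
Mean level of each tested gene in the KO libraries at day 2 (x axis) and day 4 (y axis), both as log2 of mean FPKM + 1. Red points are the 651 called genes that rose by at least 1, blue points the 726 that fell by at least 1, and grey points the other 14899; the Irx genes and Cyp26a1 lie far above the diagonal, Tcf15, Dppa5a and Utf1 far below it.

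The 15 largest rises were led by Cyp26a1 (ENSMUSG00000024987, chromosome 19, 37697798 to 37701536, plus strand). It stood at 0.19 and 0.26 FPKM at day 2 and 33.4 and 31.0 FPKM at day 4, a 143-fold rise of the mean and 4.76 ± 0.10 on the log2 scale (adjusted p = 4.6e-18). The fold rests on a day 2 level under 0.3 FPKM, and no library of one day came near those of the other. Its promoter is the one shown above with the retinoic acid element. Irx5 (ENSMUSG00000031737, chromosome 8, 92357625 to 92376286, plus strand), Irx3 (ENSMUSG00000031734, chromosome 8, 91798525 to 91802067, minus strand) and Irx1 (ENSMUSG00000060969, chromosome 13, 71957921 to 71963723, minus strand) encode Iroquois homeobox factors. Irx5 was at 1.17 and 1.47 FPKM at day 2 and 53.8 and 53.5 FPKM at day 4, 40.6-fold higher (4.56 ± 0.09). Irx3 reached 95.1 and 96.0 FPKM from 4.67 and 4.13 FPKM (4.16 ± 0.06), and Irx1 31.1 and 29.2 FPKM from 0.71 and 0.68 FPKM (4.20 ± 0.11). All 3 were low at day 2 and high at day 4 in both libraries of each day.

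Rgma, which encodes a membrane protein that guides axons and acts as a BMP co-receptor, ranked after Cyp26a1 and Irx5 in size and was at 2.31 and 2.06 FPKM and then 60.6 and 60.3 FPKM (4.27 ± 0.14). Foxd4, a forkhead factor of the early neural plate, went from 0.11 and 0.12 FPKM to 16.5 and 17.2 FPKM (4.00 ± 0.05). Lmx1b, a LIM homeobox factor of the isthmus and midbrain, went from 0.76 and 0.75 FPKM to 27.2 and 26.6 FPKM (3.99 ± 0.08). Foxd4 and Lmx1b were thus below 1 FPKM at day 2 and above 10 FPKM at day 4. Greb1l rose from 0.38 and 0.26 FPKM to 17.7 and 17.7 FPKM (3.82 ± 0.07), and Frzb, a secreted Wnt antagonist, from 0.45 and 0.39 FPKM to 18.7 and 16.9 FPKM (3.73 ± 0.08). Sox9, a factor of neural crest and of neural progenitors, rose from 0.39 and 0.34 FPKM to 16.2 and 15.9 FPKM (3.64 ± 0.04). Shisa2, which encodes an inhibitor of Wnt and FGF receptor maturation, reached 73.6 and 75.2 FPKM (3.49 ± 0.05). Hesx1 and Mab21l2, both of the anterior neural plate and eye field, reached 35.1 and 35.6 and 37.1 and 37.9 FPKM, with changes of 3.48 ± 0.13 and 3.47 ± 0.05. The last of the 15 were Sp5, a direct Wnt target whose promoter is shown above, at 0.56 and 0.44 FPKM and then 14.6 and 15.3 FPKM (3.41 ± 0.09), and Lhx5, a LIM homeobox factor of the forebrain and diencephalon, at 0.32 and 0.18 FPKM and then 11.4 and 11.7 FPKM (3.33 ± 0.06).

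The 15 largest falls were led by Tcf15 (ENSMUSG00000068079, chromosome 2, 152143561 to 152149097, plus strand), a bHLH factor of the epiblast on its way to priming. Its level was 198 and 192 FPKM at day 2 and 9.28 and 9.95 FPKM at day 4, 20.3-fold lower (-4.21 ± 0.09, adjusted p = 2.4e-18). Tdh, which encodes the threonine dehydrogenase that mouse stem cells depend on, fell from 138 and 139 FPKM to 7.34 and 7.08 FPKM (-4.08 ± 0.06). Dppa5a, an RNA-binding protein gene of pluripotent cells, fell from 581 and 597 FPKM to 39.2 and 40.5 FPKM (-3.85 ± 0.05), and Rhox5, a homeobox gene, from 156 and 147 FPKM to 10.6 and 11.7 FPKM (-3.65 ± 0.12). All 4 had been among the higher transcripts of day 2, above 100 FPKM in both libraries. Fgf4, the FGF ligand of the epiblast, changed by -3.46 ± 0.05. Lefty2 and Gdf3, a Nodal antagonist and a Nodal-like ligand, fell from 22.0 and 23.3 to 1.16 and 1.27 FPKM and from 31.3 and 30.7 to 2.00 and 2.04 FPKM. Utf1 and Dnmt3l fell by 10.1-fold and 11.3-fold, and Notum, a Wnt deacylase and Wnt target, by 14.8-fold. Triml2, Rbmxl2, Slc7a7, an amino acid transporter gene, and Mymx, which encodes a myoblast fusion micropeptide, fell by 3.38, 3.38, 3.29 and 3.26 on the log2 scale. Rpl10l changed by -3.40 but is a near copy of another ribosomal protein gene, so its value is uncertain.

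All 14 genes of the naive pluripotency list fell, with a median change of -2.04 against 0.03 for all tested genes. Zfp42, a classic marker of naive stem cells, was at 102 and 97.8 FPKM at day 2 and 12.7 and 12.7 FPKM at day 4 (-2.88 ± 0.05). Nanog changed by -0.57 ± 0.04 and Sox15 by -2.12 ± 0.15. The range over the list was -2.88 to -0.45. In WT 11 of the 14 fell, with a median of -1.20, and the fall was called as larger in KO for 11. Sox15 was not called in WT (-0.19 ± 0.15, adjusted p = 0.299), and the difference was -1.93 ± 0.21. Sox15 overlaps Mpdu1, which was also lower at day 4 in both KO libraries, and reads of the pair cannot be told apart.

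The 12 genes of core and general pluripotency divided, 8 falling and 4 rising, with a median of -2.44. Pou5f1 (ENSMUSG00000024406, chromosome 17, 35506018 to 35510772, plus strand), which encodes OCT4, the central factor of pluripotency, was at 869 and 886 FPKM at day 2 and 204 and 199 FPKM at day 4 (-2.11 ± 0.05, adjusted p = 3.46e-17). In WT it was at 802 and 799 FPKM and then 396 and 401 FPKM, and the change in KO differed from that in WT by -1.11 ± 0.07 (adjusted p = 8.76e-10). The lines began the step at like levels and ended it with KO lower in both libraries. Utf1, a chromatin-associated protein of undifferentiated cells, went from 979 and 928 FPKM to 91.2 and 96.8 FPKM (-3.33 ± 0.05), with WT at 906 and 889 FPKM and 321 and 321 FPKM, a difference of -1.85 ± 0.07. Sox2, which neural progenitors also express, rose from 154 and 153 FPKM to 209.8 and 206 FPKM (0.44 ± 0.04), and Lin28a, an RNA-binding protein of early progenitors, changed by 0.93 ± 0.02. In bulk RNA such a fall can be fewer cells of a type or less RNA per cell, and these cannot be told apart.

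Of the 13 formative and primed epiblast genes 9 fell and 4 rose, with a median of -1.09 (WT -0.46). Pou3f1, a POU factor of the epiblast and early neural plate, was at 157 and 154 FPKM at day 2 and 34.7 and 37.0 FPKM at day 4 (-2.09 ± 0.06). WT held 109 and 107 FPKM and then 68.9 and 70.0 FPKM, a difference of -1.46 ± 0.08. Fgf5, the FGF ligand that defines the formative epiblast, fell in KO from 61.6 and 63.4 FPKM to 31.1 and 26.6 FPKM (-1.09 ± 0.09) and rose in WT by 0.30 ± 0.09, a difference of -1.39 ± 0.13. Foxd3, a forkhead factor of the epiblast and neural crest, changed by -3.22 ± 0.06 and Lef1, a Wnt effector, by -1.74 ± 0.10. Otx2, which is expressed in epiblast and in forebrain and midbrain, rose by 0.63 ± 0.03.

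The list of diencephalon, midbrain and isthmus genes had 20 tested members of 21. Of these 15 rose and 3 fell, with a median of 2.05 against 0.44 in WT, and the change was called higher in KO than in WT for 14 and lower for 3. Dmbx1, a homeobox factor of the midbrain, was at 0.16 and 0.14 FPKM at day 2 and 8.40 and 8.55 FPKM at day 4 (3.04 ± 0.05). Wnt1, the Wnt ligand of the midbrain and isthmus, was at 0.06 and 0.06 FPKM and then 7.14 and 7.14 FPKM (2.94 ± 0.05), while WT was listed at 0 in both libraries of day 2 and at 0.44 and 0.51 FPKM at day 4. En1, a homeobox factor of the midbrain and hindbrain border, rose from 0.99 and 1.21 FPKM to 9.20 and 9.21 FPKM in KO and changed by -0.42 ± 0.10 in WT. In KO these 3 genes were near or below 1 FPKM at day 2 and above 7 FPKM in both libraries of day 4.

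Foxb1, a forkhead factor of the diencephalon, rose from 0.26 and 0.13 FPKM to 7.85 and 8.01 FPKM (2.90 ± 0.06). Pax2 rose from 0.12 and 0.15 FPKM to 5.57 and 5.60 FPKM (2.54 ± 0.05), and Irx2 from 2.39 and 3.19 FPKM to 17.8 and 17.3 FPKM (2.30 ± 0.14). The 3 that fell were the isthmic ligands Fgf8, 2.50 and 2.83 FPKM and then 1.49 and 1.46 FPKM (-0.56 ± 0.16), and Fgf17 (-1.10 ± 0.08), with En2 (-1.03 ± 0.09). The isthmic ligands thus went the other way from Wnt1 and Pax2. Fgf8 rose in WT (0.91 ± 0.16), and the difference was -1.47 ± 0.22.

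Of 14 more posterior genes, of hindbrain and spinal cord, 6 reached the level needed for a test, with 1 that rose, 1 that fell and a median of 0.01 (WT -0.01). Gbx2, a homeobox factor of the anterior hindbrain, which is also expressed in pluripotent cells, was at 3.05 and 3.02 FPKM at day 2 and 0.51 and 0.44 FPKM at day 4 (-1.45 ± 0.07).

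**Figure D2:**
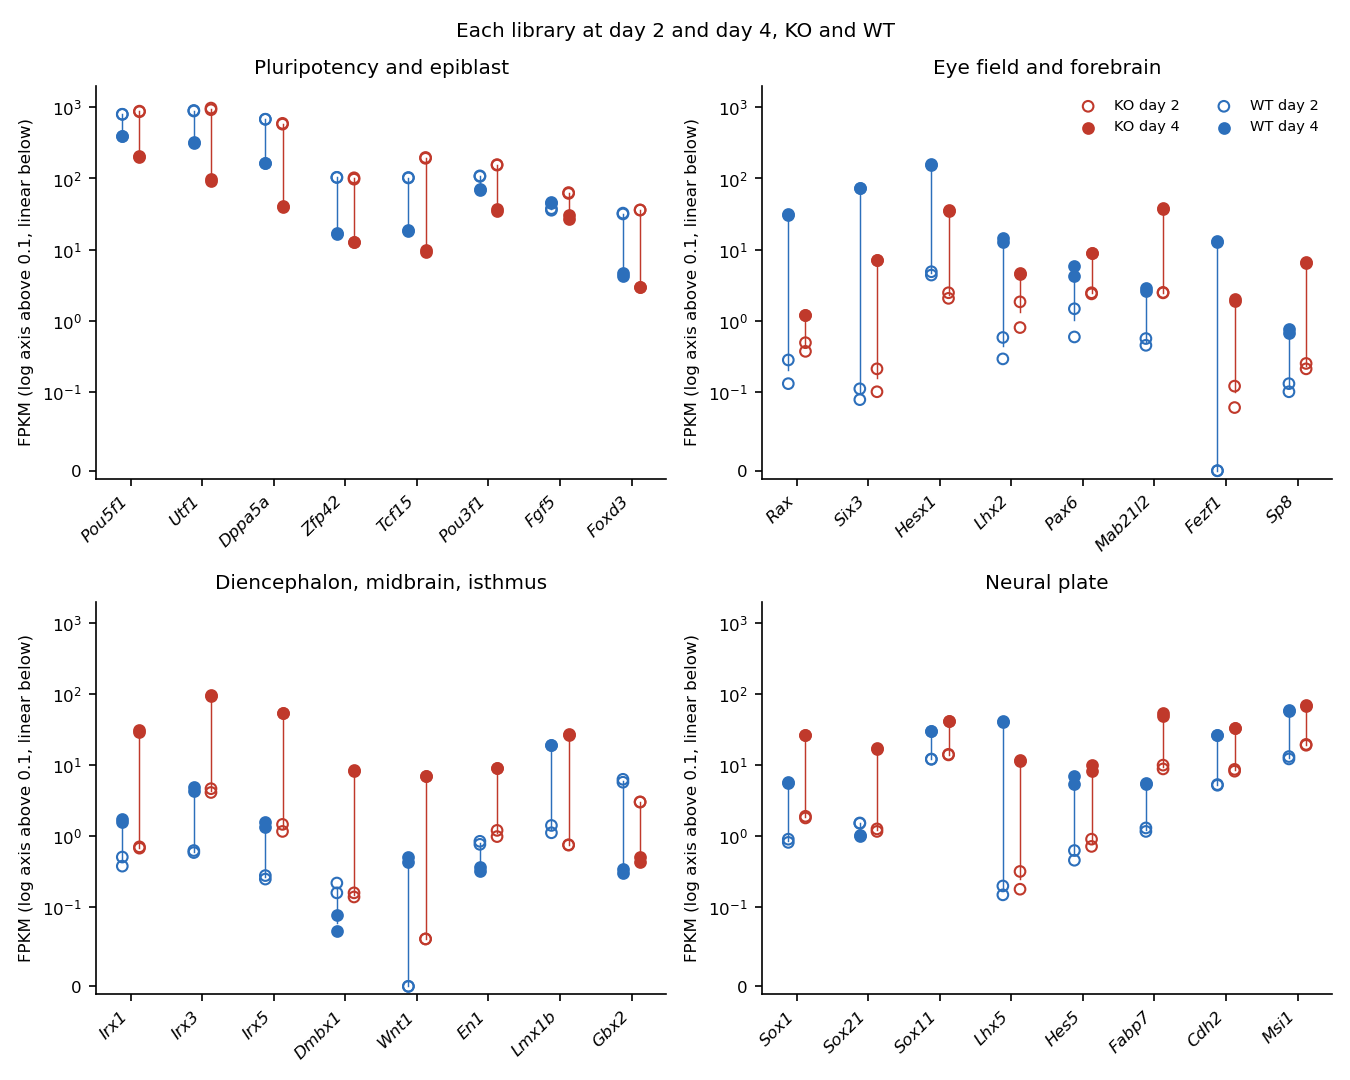
FPKM (log axis above 0.1, linear below) of 32 genes in single libraries at day 2 (open) and day 4 (filled), KO in red and WT in blue, in 4 panels: pluripotency and epiblast, eye field and forebrain, diencephalon to isthmus (with Gbx2 of the hindbrain), and neural plate genes. The pluripotency and epiblast genes shown end lower in KO than in WT, Rax and Six3 end far lower in KO, and Irx, Dmbx1 and Wnt1 end higher in KO.

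Of the 12 eye field genes 7 rose and 1 fell in KO, with a median of 0.43 (WT 0.80). Rax, the retinal homeobox gene behind the reporter of the WT line, was at 0.37 and 0.49 FPKM at day 2 and 1.20 and 1.21 FPKM at day 4 in KO (0.63 ± 0.06), and at 0.13 and 0.28 FPKM and 30.7 and 31.5 FPKM in WT. The difference of the changes was -4.11 ± 0.09 (adjusted p = 1.22e-16). The row of the green fluorescent reporter stood at 0.34 and 0.10 FPKM and 0.44 and 0.33 FPKM in KO and was not called. In WT it was at 0.22 and 0.27 FPKM and then 31.4 and 32.3 FPKM. Whether the KO line carries that reporter is not given in the sources used here.

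Six3 (ENSMUSG00000038805, chromosome 17, 85613608 to 85629302, plus strand), which represses Wnt genes in the anterior forebrain, rose from 0.10 and 0.21 FPKM to 7.08 and 7.18 FPKM in KO (2.82 ± 0.07) and from 0.11 and 0.09 FPKM to 73.8 and 74.3 FPKM in WT. Hesx1 rose in both, to 35.1 and 35.6 FPKM in KO and 153 and 158 FPKM in WT, a difference of -1.32 ± 0.18. Lhx2, needed for the optic vesicle, was at 0.80 and 1.84 FPKM and then 4.52 and 4.67 FPKM in KO (1.31 ± 0.14). Six3, Hesx1 and Lhx2 rose in KO, and each rise was called as smaller than in WT. Pax6 rose from 2.47 and 2.38 FPKM to 8.99 and 8.84 FPKM (1.53 ± 0.15), and its difference from WT of -0.07 ± 0.21 was not called (adjusted p = 0.838). Mab21l2 rose more in KO than in WT, by 2.16 ± 0.07. Six6, a later eye gene, was the member that fell, between values all under 0.4 FPKM (-0.33 ± 0.06). It overlaps 4930447C04Rik, which was at 21.7 and 22.6 FPKM at day 2 and 6.74 and 5.80 FPKM at day 4, and reads of the pair cannot be told apart. The change was called higher in KO than in WT for 2 of the 12 genes and lower for 5.

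Of 12 anterior forebrain genes 10 were tested. Of these 8 rose and 0 fell in limma, also at an unadjusted p under 0.05, with a median of 1.02 (WT 0.85). Fezf1 and Fezf2, zinc finger factors of the forebrain, rose by 1.43 ± 0.05 and 1.35 ± 0.05, with differences from WT of -2.37 ± 0.07 and -2.34 ± 0.06. Fezf1 reached 1.92 and 2.00 FPKM at day 4. Sp8, a zinc finger factor of the forebrain and of the midbrain border, went from 0.21 and 0.25 FPKM to 6.73 and 6.54 FPKM (2.63 ± 0.05), more than in WT by 2.01 ± 0.08.

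Neural plate and progenitor genes rose broadly: 14 of 17 rose and 1 fell, with a median of 1.77 (WT 0.58). Sox1, the earliest specific marker of the neural plate, was at 1.91 and 1.81 FPKM at day 2 and 26.5 and 26.6 FPKM at day 4 (3.27 ± 0.06), more than in WT by 1.43 ± 0.08. Sox21 was at 1.17 and 1.27 FPKM and then 16.8 and 17.6 FPKM (3.03 ± 0.03), whereas in WT it changed by -0.32 ± 0.03. Hes5, a Notch target of progenitors, went from 0.91 and 0.72 FPKM to 8.21 and 10.2 FPKM (2.49 ± 0.18). Each of these was higher at day 4 in both libraries. Fabp7, a fatty acid binding protein of radial glia, rose from 8.86 and 10.0 FPKM to 53.6 and 48.8 FPKM (2.32 ± 0.11), Cdh2, neural cadherin, from 8.73 and 8.23 FPKM to 33.0 and 33.4 FPKM (1.85 ± 0.04), and Msi1 and Sox11 by 1.80 ± 0.07 and 1.49 ± 0.03. Nes, the progenitor intermediate filament gene, was not called (-0.06 ± 0.06, adjusted p = 0.33). The change was called higher in KO than in WT for 9 of the 17 genes and lower for 4, Lhx5 among the lower (-1.83 ± 0.08).

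Proneural and early neuronal genes moved less: 8 of 16 rose and 1 fell, with a median of 0.14 (WT 0.11). Of 14 neural crest and border genes 9 rose and 1 fell, with a median of 0.35 (WT 0.40), Sox9 having the largest rise.

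Most Wnt pathway genes rose. Of 22 genes 16 rose and 2 fell, with a median of 0.71 (WT 0.11), and the change was called higher in KO than in WT for 11 and lower for 4. Among ligands and receptors, Wnt7b changed by 1.97 ± 0.06 and Fzd10, a Wnt receptor, by 1.21 ± 0.07. Targets that report on the pathway rose as well. Axin2, a scaffold of the beta-catenin destruction complex and a direct target, was at 5.16 and 5.36 FPKM at day 2 and 15.2 and 15.8 FPKM at day 4 (1.40 ± 0.08). It was not called in WT (0.08 ± 0.08, adjusted p = 0.411), and the difference was 1.31 ± 0.12. Sp5 rose more in KO than in WT by 3.26 ± 0.13, WT staying at 0.16 and 0.18 FPKM at day 4. Nkd1, a feedback inhibitor, changed by 1.33 ± 0.11, and Notum was among the largest falls. Antagonists were the third group. Dkk1, a secreted inhibitor of the LRP co-receptors, went from 0.08 and 0.07 FPKM to 4.47 and 4.52 FPKM (2.35 ± 0.08), more than in WT by 2.56 ± 0.11. Sfrp1 went from 7.38 and 7.37 FPKM to 47.4 and 48.3 FPKM (2.54 ± 0.03), and Apcdd1 changed by 1.63 ± 0.08. The other member that fell was Tcf7, a Wnt effector (-0.62 ± 0.05).

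Most Nodal pathway genes fell. Of 12 genes 11 were tested, 7 fell and 3 rose, with a median of -0.61 (WT -0.07). Nodal, the TGF-beta ligand of the epiblast, was at 13.9 and 13.3 FPKM at day 2 and 1.36 and 1.45 FPKM at day 4 (-2.60 ± 0.06). Lefty1, an antagonist and target, was at 13.6 and 14.5 FPKM and then 1.09 and 0.99 FPKM (-2.88 ± 0.14), and Smad7, an inhibitory SMAD, changed by -1.97 ± 0.07. Ligand and antagonists thus fell side by side, and the change was called lower in KO than in WT for 7 of the 11.

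Of 16 FGF genes on the list 6 rose and 8 fell, with a median of -0.10 (WT -0.28). The 8 that fell were the ligand gene Fgf3 and 7 feedback genes or targets of ERK signalling. The ligand genes Fgf4, Fgf5, Fgf8 and Fgf17, held by other lists, fell too. Fgf9, Fgf13 and Fgf15, which are on this list, were not among those that fell, so the Fgf genes did not all fall. Spry4, a Sprouty inhibitor, fell from 15.6 and 14.9 FPKM to 1.17 and 1.09 FPKM (-2.93 ± 0.04) and Etv5, an ETS factor, from 82.8 and 82.2 FPKM to 12.5 and 12.6 FPKM (-2.62 ± 0.02). Etv4 changed by -2.18 ± 0.08 and Dusp6, an ERK phosphatase, by -1.58 ± 0.05. The 3 receptor genes were among the 6 that rose. Fgfr2 went from 5.22 and 4.82 FPKM to 54.9 and 56.2 FPKM (3.23 ± 0.06), Fgfr1 from 48.6 and 46.2 FPKM to 134 and 136 FPKM (1.49 ± 0.03), and Fgfr3 changed by 1.59 ± 0.11.

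Of 13 tested BMP genes 9 rose and 3 fell, with a median of 0.68 (WT 0.41). Bmp4, a ligand, fell from 23.4 and 29.9 FPKM to 9.92 and 6.96 FPKM (-1.56 ± 0.33), with wide spread at both days. Bmp7, another ligand, rose by 1.93 ± 0.06. Id1, a direct target, rose from 30.2 and 31.2 FPKM to 142 and 143 FPKM (2.18 ± 0.03), and Id3 by 1.53 ± 0.04. Of 14 tested Notch genes 10 rose and 2 fell, with a median of 0.41 (WT 0.31). Hes6, a Hes family member, was one that fell, from 169.7 and 171 FPKM to 60.3 and 63.1 FPKM (-1.45 ± 0.05).

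Of the 15 retinoic acid genes 12 were tested, 4 rose and 3 fell, with a median of 0.00 (WT 0.15). Cyp26a1 led the rises. Crabp2, a binding protein that carries retinoic acid to its receptors, rose from 57.7 and 61.4 FPKM to 242 and 241 FPKM (2.00 ± 0.04). Crabp1, its relative, fell from 61.4 and 61.0 FPKM to 25.9 and 26.6 FPKM (-1.19 ± 0.04) and rose in WT (0.63 ± 0.04), a difference of -1.82 ± 0.05. Rarg, a retinoic acid receptor gene, fell from 83.9 and 81.4 FPKM to 30.8 and 33.7 FPKM (-1.33 ± 0.03). The members therefore did not move as a block.

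Glycolysis and hypoxia genes changed differently in KO and WT. Of 16 genes 6 rose and 9 fell in KO, with a median of -0.16, against 0.61 in WT. The change was called lower in KO than in WT for 13 and higher for 1, which was Pdk1, a kinase that inhibits pyruvate dehydrogenase (0.51 ± 0.04). Egln3, an oxygen-sensing prolyl hydroxylase that hypoxia induces, fell in KO from 30.9 and 29.7 FPKM to 20.6 and 19.8 FPKM (-0.56 ± 0.07) and rose in WT from 4.66 and 4.74 FPKM to 20.6 and 21.2 FPKM, a difference of -2.50 ± 0.10 (adjusted p = 2.49e-13). Ldha, lactate dehydrogenase, went from 2029 and 2010.3 FPKM to 1788 and 1808 FPKM in KO (-0.17 ± 0.01) and rose in WT (0.67 ± 0.01). KO and WT thus moved in opposite directions for Egln3 and Ldha. For Egln3 the lines stood apart at day 2, with KO higher, and at like levels at day 4. Slc2a1, a glucose transporter gene, rose in both, by 0.22 ± 0.03 in KO and 1.04 ± 0.03 in WT. Slc2a3, another glucose transporter gene, rose in KO from 103 and 102 FPKM to 303 and 306 FPKM (1.56 ± 0.02).

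**Figure D3:**
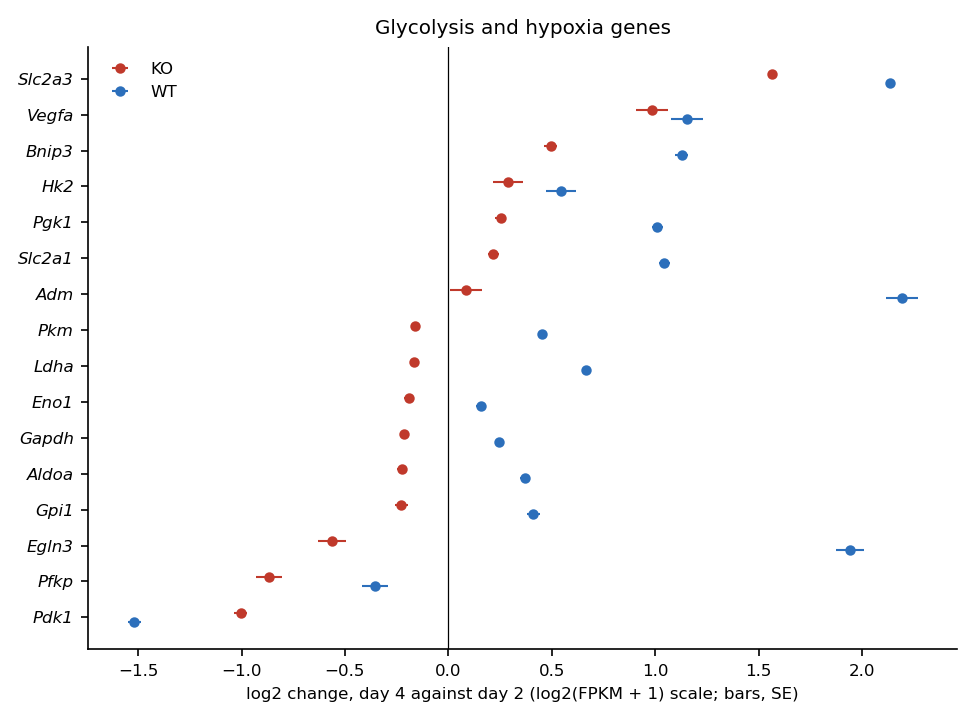
Log2 change from day 2 to day 4, with its SE, for the 16 genes of the glycolysis and hypoxia list in KO (red) and WT (blue). WT values lie above KO values for every gene shown but Pdk1, with the widest gap at Egln3.

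Cholesterol synthesis genes rose: 12 of 13 rose and 0 fell in limma, also at an unadjusted p under 0.05, with a median of 0.53 (WT 0.43). Hmgcs1, which encodes an early enzyme of the pathway, went from 68.7 and 69.0 FPKM to 146 and 146 FPKM (1.07 ± 0.02).

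Among the 18 genes of m6A writers, erasers and readers 12 rose and 0 fell in limma, also at an unadjusted p under 0.05, with a median of 0.30 (WT 0.04), and the change was called higher in KO than in WT for 9 and lower for 1. The largest changes on the list were in the binding proteins Igf2bp2 (1.04 ± 0.04) and Igf2bp3 (0.85 ± 0.04), in Rbm15b (0.66 ± 0.06), part of the writer complex, and in the reader Ythdf3 (0.60 ± 0.04). Of the 6 DNA methylation genes 1 rose and 4 fell, with a median of -0.24 (WT -0.12). Tet3, a DNA demethylase, was the one that rose (1.23 ± 0.05), and Dnmt3l, the cofactor of de novo methylation, fell from 77.4 and 76.3 FPKM to 6.52 and 7.04 FPKM.

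Of 14 adhesion genes 5 rose and 6 fell, with a median of -0.16 (WT 0.23). Cdh1, epithelial cadherin, fell from 158 and 159 FPKM to 107 and 106 FPKM (-0.57 ± 0.04), so that it remained well expressed beside the Cdh2 that rose. Epcam fell (-0.87 ± 0.06), as did Fn1, fibronectin (-1.20 ± 0.06). Zeb2, a repressor of epithelial genes that is also active in the neural plate, rose from 0.92 and 0.44 FPKM to 10.4 and 11.3 FPKM (2.83 ± 0.14). Of 14 cyclin and CDK inhibitor genes 6 rose and 7 fell, with a median of -0.10 (WT -0.11). Ccnd2, a cyclin of neural progenitors, rose from 2.69 and 2.36 FPKM to 18.3 and 17.6 FPKM (2.43 ± 0.08), Mki67, a proliferation marker, rose by 0.81 ± 0.03, and Cdkn2a, a CDK inhibitor gene, changed by -1.66 ± 0.14.

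In the integrated stress response 6 of 10 tested genes rose and 3 fell, with a median of 0.21 (WT 0.04). Of 10 p53 targets 7 rose and 2 fell, with a median of 0.43 (WT 0.09). Imprinted genes divided, 6 of 16 rising and 7 falling, with a median of 0.03 (WT 0.30), and the change was called lower in KO than in WT for 12. Igf2, a growth factor gene, rose from 2.15 and 1.38 FPKM to 17.0 and 16.8 FPKM (2.71 ± 0.12) and Mest by 1.59 ± 0.06, while Phlda2, which restrains placental growth, changed by -1.38 ± 0.10.

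**Figure D4:**
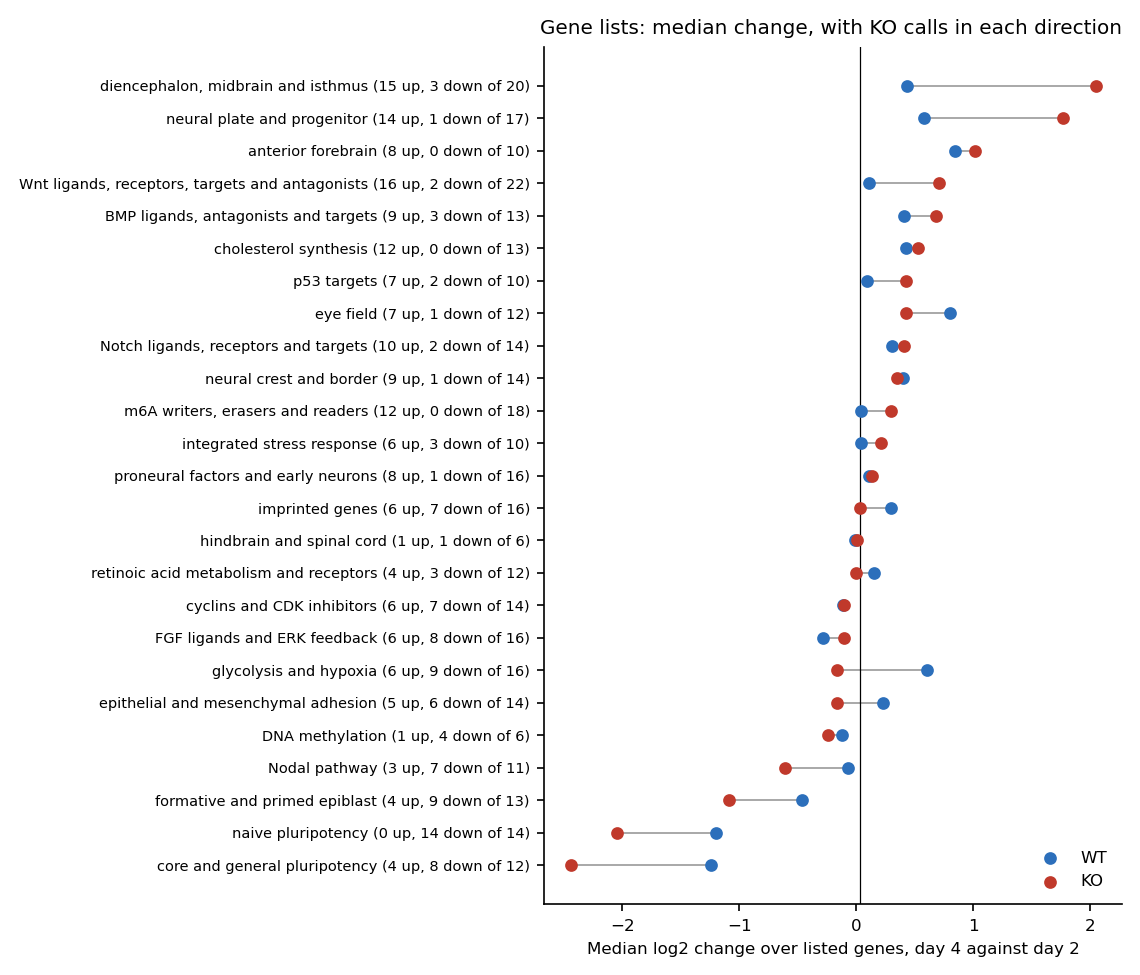
Median log2 change from day 2 to day 4 of 25 pathway lists in KO (red) and WT (blue), with the number of genes that rose and fell in KO beside each name and a line at the median of all tested genes in KO (0.03). Naive and core pluripotency lie lowest in both. The midbrain list and the neural plate list lie highest in KO, and the anterior forebrain (0.85) and eye field (0.80) lists in WT. Glycolysis and hypoxia genes lie to opposite sides of the line in KO and WT.

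Markers of other cell types were low, and among the 6 lists the summed level rose most for extraembryonic endoderm. Its 12 markers summed to 23.7 and 23.2 FPKM in the KO libraries of day 2 and 56.7 and 54.7 FPKM at day 4, with 3 genes that rose and 2 that fell. The genes that rose were Col4a1 and Lama1 (1.41 ± 0.11 and 1.11 ± 0.14), which encode basement membrane proteins that many tissues make, and Dab2. Gata4 and Cubn, more particular to endoderm, changed by -0.35 ± 0.07 and -0.15 ± 0.05. In WT the sums were higher throughout, 127.6 and 129.5 FPKM and then 130.7 and 136.4 FPKM. Dab2, an endocytic adaptor of that tissue, rose in KO from 3.09 and 2.91 FPKM to 7.17 and 7.22 FPKM and fell in WT from 32.8 and 33.4 FPKM to 18.4 and 19.0 FPKM, a difference of 1.83 ± 0.12. None of the 12 was listed at 0 in all 4 KO libraries, and 7 of its 12 genes were under 1 FPKM in all 4 KO libraries.

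Mesendoderm markers summed to 15.4 and 15.3 FPKM at day 2 and 11.0 and 11.4 FPKM at day 4. Of 10 genes 7 were under 1 FPKM in all 4 KO libraries, and of the 4 tested 2 rose and 1, Eomes (-0.66 ± 0.06), fell. Trophoblast and surface ectoderm markers summed to 45.6 and 45.5 FPKM and then 56.2 and 59.0 FPKM, with 2 of 7 tested that rose, the keratin genes Krt8 and Krt18, 4 that fell, and Trp63 listed at 0. Blood and endothelium markers summed to 6.39 and 6.58 FPKM and then 1.76 and 1.42 FPKM, with 3 of 4 tested that fell and Hbb-bh1 listed at 0. Heart and fibroblast markers summed to 22.1 and 16.8 FPKM and then 10.1 and 10.5 FPKM, with 4 of 6 tested that rose and 2 that fell, Myh6 among these from 10.1 and 6.60 FPKM to 0.70 and 1.30 FPKM. Totipotent-like markers summed to 4.78 and 3.52 FPKM and then 3.58 and 3.37 FPKM, with 1 of 5 that fell. The part of such cells in the neural and pluripotency results was not tested.

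The next comparison asked where the step in KO differed from the same step in WT. Rax and Six3 rose far less in KO than in WT, and Cyp26a1, Irx5, Irx1, Sp5, Sox21 and Dmbx1 rose far more. The called differences reached at least 1 in size for 497 genes. For 878 genes both changes were called in opposite directions and the difference was called too. These steps share no library.

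Among the 8 highest differences, Cyp26a1 came first (4.66 ± 0.14, adjusted p = 1.23e-14). WT held 8.38 and 8.37 FPKM at day 2 and 8.93 and 9.12 FPKM at day 4 and was not called, so that KO began below WT and ended above it. Irx5 followed (3.61 ± 0.13), with WT at 1.33 and 1.57 FPKM at day 4, then Sox21 (3.35 ± 0.05), Irx1 (3.32 ± 0.16), Sp5 (3.26 ± 0.13), Dmbx1 (3.18 ± 0.08), Foxb1 (2.80 ± 0.09) and En1 (2.71 ± 0.13). All 8 except Cyp26a1 are transcription factor genes, and 5 of them are on the list of diencephalon, midbrain and isthmus.

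Among the 8 lowest, Rax and Six3 (-3.28 ± 0.10) were followed by Robo3, an axon guidance receptor gene (-2.82 ± 0.13). Ndufa4l2, which encodes a mitochondrial protein induced by hypoxia, fell in KO from 101 and 94.5 FPKM to 50.6 and 52.7 FPKM and rose in WT by 1.90 ± 0.21. Cox4i2, a cytochrome oxidase subunit gene also known as responsive to hypoxia, differed by -2.50 ± 0.19, and Egln3 was the third of this kind. Rps6kl1 fell in KO from 13.0 and 13.6 FPKM to 0.86 and 0.73 FPKM, a difference from WT of -2.67 ± 0.11. Ermn was listed at 0 in both KO libraries of day 2 and at 0.22 and 0.27 FPKM at day 4, with WT at 6.68 and 7.06 FPKM. The 6 genes called in opposite directions with the largest changes on both sides were Ndufa4l2, Ndrg1, a hypoxia-responsive gene (-0.90 ± 0.06 in KO, 1.27 ± 0.06 in WT), Dab2, Tppp3 (1.02 ± 0.08 in KO, -0.87 ± 0.08 in WT), Des, desmin (-0.90 ± 0.11 in KO, 0.87 ± 0.11 in WT), and Ldc1 (-0.87 ± 0.31 in KO, 0.75 ± 0.31 in WT).

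A further comparison set the KO step beside that of the KO line with the fusion and Dex. Dex was given only to that arm, so an effect of Dex and an effect of the nuclear fusion cannot be told apart. In it 10860 genes were called (66.7%), and the difference of the changes was called for 5356 genes (32.9%). Of these 35.2% were higher in KO, or 46.7% after rescaling. Rax rose from 0.31 and 0.22 FPKM to 74.2 and 74.8 FPKM with fusion and Dex and to 6.51 and 6.43 FPKM with the fusion without Dex, against 1.20 and 1.21 FPKM in KO (KO minus Dex -5.27 ± 0.09, adjusted p = 1.31e-18). Fezf1 (-4.35 ± 0.07), Lhx2 (-4.26 ± 0.19), Six3 (-3.99 ± 0.10) and Fezf2 (-3.83 ± 0.06) were the next lowest. At day 4 Lhx2 was at 66.0 and 68.8 FPKM with Dex, 10.7 and 10.8 FPKM without, and 4.52 and 4.67 FPKM in KO. For all 5 genes the arm without Dex lay between the other 2 at day 4.

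The highest of these differences were those of Cyp26a1 (3.14 ± 0.14), Irx5 (2.97 ± 0.13), Irx3 (2.69 ± 0.08), Fabp7 (2.69 ± 0.16) and Cxcl12, a chemokine gene (2.68 ± 0.10). Irx5 at day 4 was at 3.91 and 4.30 FPKM with Dex, 26.4 and 25.1 FPKM without and 53.8 and 53.5 FPKM in KO. Irx3 was at 8.67 and 8.80, 59.5 and 57.5 and 95.1 and 96.0 FPKM in the same order. Fabp7 was at 3.03 and 3.06, 25.8 and 25.8 and 53.6 and 48.8 FPKM. For Cyp26a1 the arm without Dex, at 30.0 and 30.5 FPKM, was close to KO, and the arm with Dex was at 4.70 and 4.59 FPKM. Cxcl12 fell with Dex from 15.8 and 14.4 FPKM to 3.05 and 2.60 FPKM and rose in KO from 8.17 and 8.54 FPKM to 13.2 and 13.2 FPKM.

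The last comparison set the step beside the KO step from day 0 to day 2. The labels name AGN at 0.1 µM for days 2, 4 and 6 but not for the stem cells of day 0. In the first step an effect of time and an effect of AGN therefore cannot be told apart. The steps share the day 2 libraries, and the later step to day 6 shares those of day 4, so values stand side by side here. The second step minus the first was called for 9182 genes (56.4%). Several genes that rose were high at day 4 alone. Cyp26a1 was at 0.38 and 0.34 FPKM at day 0 and 0.12 and 0.17 FPKM at day 6, on either side of its day 4 level of 33.4 and 31.0 FPKM. Foxd4 and Hesx1 were at 0.46 and 0.41 and 0.13 and 0.24 FPKM at day 6, and Six3 at 0.69 and 0.58 FPKM. Lmx1b went from 27.2 and 26.6 FPKM at day 4 to 3.70 and 3.97 FPKM, Shisa2 from 73.6 and 75.2 FPKM to 7.69 and 8.06 FPKM, and En1 from 9.20 and 9.21 FPKM to 1.29 and 1.31 FPKM. Other genes went on upward. Irx1 reached 149 and 148 FPKM at day 6, Mab21l2 212 and 211 FPKM, Wnt1 58.0 and 59.4 FPKM and Crabp2 1623 and 1586 FPKM, while Irx5 stood at 68.8 and 68.9 FPKM. Pou3f1 was highest at day 2, with 3.46 and 2.94 FPKM at day 0 and 19.3 and 19.0 FPKM at day 6. Utf1 was at 757 and 791 FPKM at day 0, higher at day 2, and at 4.21 and 4.16 FPKM at day 6.

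**Figure D5:**
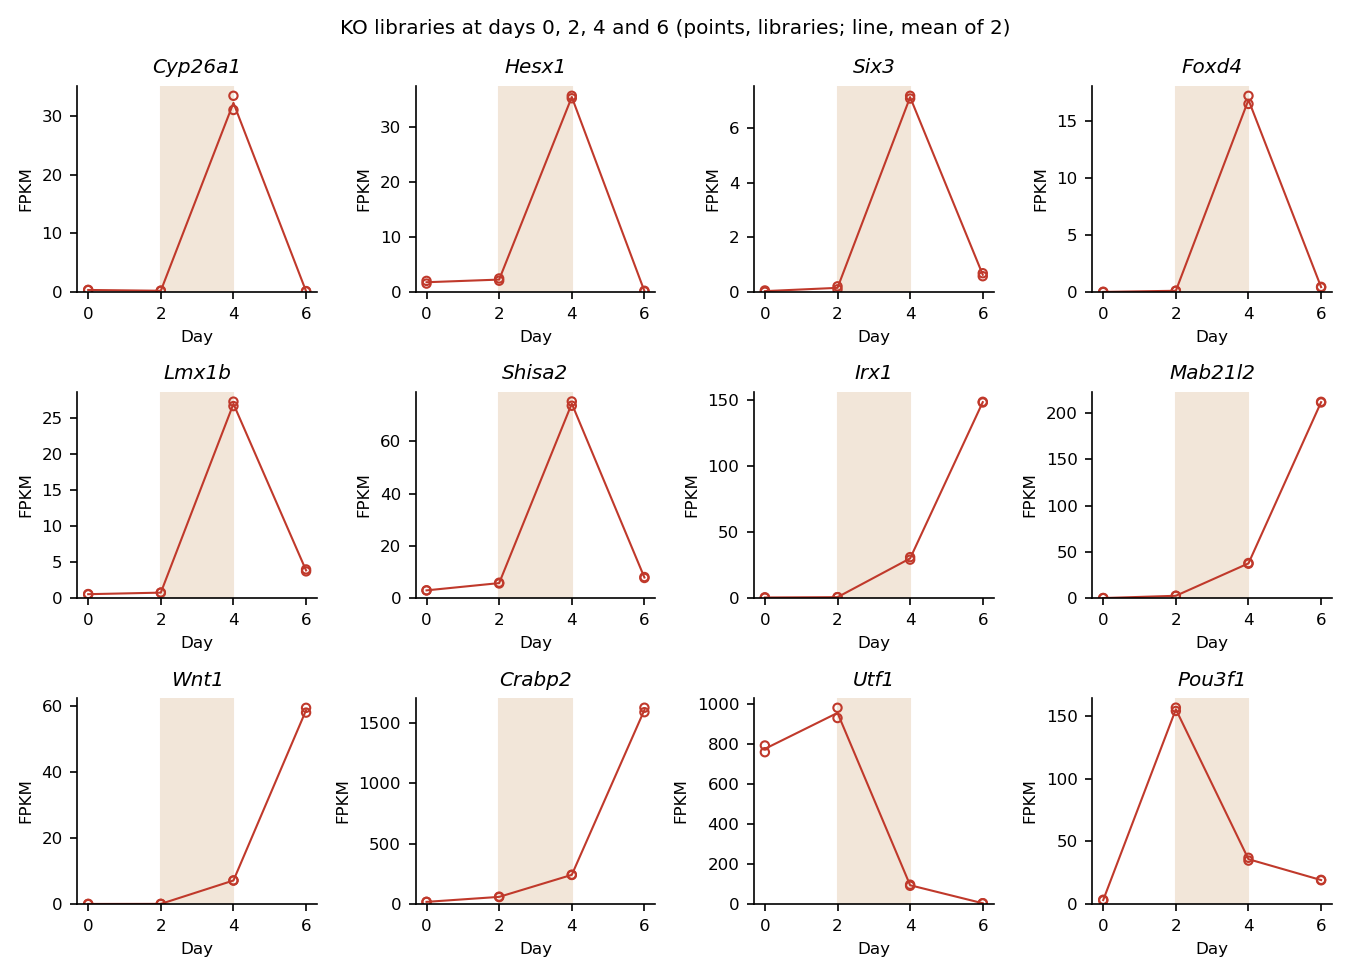
FPKM (linear axis from 0, scaled for each gene) of 12 genes in each KO library at days 0, 2, 4 and 6, with the interval from day 2 to day 4 shaded and lines through the means. Cyp26a1, Hesx1, Six3 and Foxd4 peak at day 4, Irx1, Mab21l2, Wnt1 and Crabp2 go on to rise, and Utf1 and Pou3f1 fall from day 2.

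Some named genes overlap another gene, and whether fragments were counted by strand is not given in the sources used here. Six3 overlaps the antisense gene Six3os1, which was at 0.07 and 0.03 FPKM at day 2 and 1.04 and 1.03 FPKM at day 4. Zeb2 overlaps Zeb2os, Dnmt3l overlaps Aire, and Notum overlaps Notumos. On the same strand, Rbm15b overlaps Manf, in KO at 296 and 299 FPKM and then 259 and 260 FPKM. Sox15 overlaps Mpdu1, at 89.05 and 88.78 FPKM and then 48.88 and 50.37 FPKM. Ndufa4l2 overlaps Shmt2, at 141.55 and 138.5 FPKM and then 93.78 and 98.1 FPKM. Col4a1 overlaps Col4a2, and Igf2bp3 overlaps Malsu1. The annotated span of Fgfr2 covers many other genes, Ctbp2, Tacc2 and Oat among them. Mab21l2 lies within Lrba, which was at 4.31 and 4.78 FPKM and then 6.71 and 6.83 FPKM. Reads of such pairs cannot be told apart in these values.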

How the data were processed

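Polyadenylated RNA of 32 libraries in 16 groups of 2 was sequenced on a NovaSeq in paired-end reads, per the labels' protocols. All libraries carry 1 batch date in the labels. The authors deposited FPKM values for 55492 rows, with STAR, Cuffdiff and the build mm10 named in the submitters' processing notes. Their versions, the annotation and the strandedness of counting are not given in the sources used here. Gene positions come from the GENCODE M21 annotation (99.5% of rows matched by Ensembl ID).

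Linear models of log2(FPKM + 1) were fitted by limma 3.58.1 (R 4.3.3; functions lmFit, contrasts.fit, eBayes with trend) and tested two-sided, with Benjamini-Hochberg adjustment over 16276 genes that reached 1 FPKM in at least 2 libraries. All 32 libraries entered 1 fit of 16 group means with 16 residual degrees of freedom. The log2 scale with a pseudocount of 1 FPKM understates the change of low genes. Depth came from single-fragment steps of low values: 74.5% to 89.2% of these lay within 0.2 of a whole fragment, against 40.0% for evenly spread values. Duplicates correlated across genes at 0.9922 to 0.9955. On simulated data of 16276 genes, 187.4 of 200 genes changed by 1 on the log2 scale were recovered on average over 5 simulations, and 5.9% of calls were false. No smaller change was simulated, far fewer genes changed than were called in the data, and noise was independent between libraries. The simulation therefore does not give the error of smaller calls or of libraries from a shared culture.

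The comparison and the gene lists were chosen with earlier results of these data known. Genes are named if they belong to 1 of 31 lists (410 genes, 377 tested) or are among the 15 largest rises or falls, the 8 highest or lowest differences from WT, the 5 highest or lowest from the fusion with Dex, or the 6 most opposed between KO and WT. For these, day 2 and day 4 libraries had to be apart, and predicted genes, pseudogenes, small RNAs and histone genes were left out. Some listed genes are not reported singly here. The alternatives were a pseudocount of 0.1 FPKM, no filter, a mean of at least 5 FPKM, median-of-ratios rescaling, a fit restricted to the groups compared, a block for the replicate number, each library left out, and a change of at least 1.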

Additional observations from a re-analysis of the deposited data

Results flagged for a closer look

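KO moved differently from WT over the step for 6893 genes, and differently from the fusion with Dex for 5356 genes, by limma's test of the difference itself (adjusted p under 0.05). The named genes among them are given here as KO minus the other arm, on the log2 scale.

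Changes were higher in KO than in WT for Cyp26a1 (4.66), Irx5 (3.61), Sox21 (3.35), Irx1 (3.32), Sp5 (3.26), Dmbx1 (3.18), Foxb1 (2.80), En1 (2.71), Tppp3 (1.88) and Dab2 (1.83). They were lower for Rax (-4.11), Six3 (-3.28), Robo3 (-2.82), Ndufa4l2 (-2.80), Rps6kl1 (-2.67), Ermn (-2.65), Egln3 (-2.50), Cox4i2 (-2.50), Ndrg1 (-2.18), Des (-1.78) and Ldc1 (-1.63). Ndufa4l2, Egln3 and Ndrg1 fell in KO and rose in WT. Cox4i2, at 4.97 and 6.30 FPKM and 7.29 and 6.51 FPKM in KO, was not called there and rose in WT. Ldc1 rested on small margins, with an adjusted p of 0.0187 in KO and 0.0425 in WT; its KO change of -0.87 was -0.25 (adjusted p = 0.489) without replicate 2 of KO day 2.

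Against the fusion with Dex, changes were higher in KO for Cyp26a1 (3.14), Irx5 (2.97), Irx3 (2.69), Fabp7 (2.69) and Cxcl12 (2.68). They were lower for Rax (-5.27), Fezf1 (-4.35), Lhx2 (-4.26), Six3 (-3.99) and Fezf2 (-3.83). In both comparisons Rax and Six3 were among the lowest and Cyp26a1 and Irx5 among the highest, and the comparisons share the KO libraries.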

How the results depend on the processing

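With 2 libraries a group, the number of called genes depended on the filter and the size asked for. For KO day 4 against day 2 it was 10455, and 6957 among the 9412 genes with a mean of at least 5 FPKM, where fewer genes were tested. The other settings gave 10325 (pseudocount 0.1), 11668 (no filter), 10410 (rescaling) and 9742 (compared groups alone). With a change of at least 1 required, 1377 genes remained for that comparison, 497 for KO minus WT, 332 for KO minus Dex and 2581 for the second step minus the first. Leaving out 1 library at a time gave 9428 to 9566, 5994 to 6218, 4405 to 4700 and 7721 to 8854 calls for the 4 comparisons, with the lone library taken to vary like the other groups. Same-numbered libraries of different groups did not deviate together (correlations of -0.09 to 0.13 over 120 pairs of groups, 0.04 for KO day 2 with day 4), so the numbers do not pair them. With the replicate block the counts were 10452, 6828, 5295 and 9167. The median of the imprinted list was -0.028 after rescaling, that of trophoblast and surface ectoderm 0.51 and that of heart and fibroblast -1.32 among genes with a mean of at least 5 FPKM, each with the opposite sign. Other list medians moved by more than their spread over pairs of single libraries. With a mean of at least 5 FPKM 20 moved and 8 did not. With the pseudocount of 0.1 16 moved and 15 did not, and after rescaling 12 moved and 18 did not. Of 147 named genes followed in KO, 144 stayed on the same side of the threshold under every alternative that tested them. The others were Mettl3, called after rescaling (adjusted p = 0.0182) and without replicate 2 of KO day 4 (0.0343), Cox4i2, called without replicate 2 of KO day 2 (0.0403), and Ldc1, not called in the fit of its groups alone (0.2) or without replicate 2 of KO day 2 (0.489) or replicate 1 of KO day 4 (0.0971). Ldc1 was also lost for KO minus WT in the fit of the compared groups (0.0965). Depth limits values under about 0.045 FPKM.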

Other observations

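Some gene families largely outside the lists also moved between day 2 and day 4 in KO. They were chosen after their values were seen, so their counts are descriptions. Of 21 tested genes of Eph receptors and ephrins, the contact-dependent guidance signals, 14 rose and 5 fell, with a median of 0.43 (WT 0.37). Epha2 fell from 20.9 and 20.1 FPKM to 1.81 and 2.00 FPKM (-2.89 ± 0.06), while Efna5 (2.65 ± 0.06), Ephb1 (2.56 ± 0.10), Efnb1 (2.49 ± 0.06) and Epha7 (2.09 ± 0.08) rose. Of 24 tested meiosis and germline genes 21 fell and 2 rose, with a median of -1.97 (WT -1.31). Among them Syce1 and Syce3, of the synaptonemal complex, changed by -2.46 ± 0.10 and -2.57 ± 0.27, Hormad2 by -2.21 ± 0.15 and Tex19.1 by -2.39 ± 0.10, whereas Tex15 rose by 1.75 ± 0.06.

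The metallothionein genes Mt1 and Mt2, which bind zinc and copper, were high at day 2, at 925 and 949 FPKM and 1492 and 1449.8 FPKM, and stood at 239 and 244 FPKM and 222 and 226 FPKM at day 4. Of 14 hypoxia-induced genes that the glycolysis and hypoxia list did not hold, 10 rose and 2 fell in KO, with a median of 0.30 against 1.17 in WT. The change was called lower in KO than in WT for 9 and higher for 2. The 14 include Ndufa4l2, Cox4i2 and Ndrg1, already picked above by how they differed from WT, and Ddit4 of the integrated stress response list.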
